A study of Mus musculus with 8 samples.

Results

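The comparison set prostate adenocarcinoma (PCa) against prostatic intraepithelial neoplasia (PIN), the early lesion in which abnormal cells still lie within the glands. It was chosen by the sample labels alone and uses 2 PCa and 3 PIN libraries of the 8 in the series, leaving out the 3 WT libraries. All 5 libraries came from mice labelled hARtg-Osr1Cre, which carry a human androgen receptor transgene at the Rosa26 locus behind a loxP-flanked stop, the mTmG reporter at the same locus on the other chromosome, and Cre recombinase driven by the Osr1 promoter, on a mixed C57BL/6 and 129S1/SvImJ background. Osr1 is active in the embryonic urogenital sinus, so the transgene is switched on in progenitors and stays on in all their descendants, in PIN and PCa alike. Each library was made from a different animal's tissue, picked under the microscope for atypical or tumor cells. The ages of these animals are not given in the sources used here. Since tumors arise later than PIN in this model, stage and age cannot be told apart.

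The mouse prostate gland is a tube of tall secretory luminal cells resting on a thin layer of basal cells, wrapped in smooth muscle. Luminal cells make large amounts of a few secreted proteins under the control of the androgen receptor, and the loss of this glandular order, together with cell division, marks the passage from PIN to invasive adenocarcinoma. The question put to the data was which genes separated tumors from PIN when every library carried the same transgene. The values are raw read counts per gene, scaled here to CPM (counts relative to a common library size) with TMM factors over the 5 libraries. A total of 27421827 to 28517421 reads fell on genes in PIN, 23527628 in PCa 1 and 24457124 in PCa 2.

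Of 27036 genes in the table, 13813 had more than 1 CPM in at least 2 of the 5 libraries and were tested. With edgeR's quasi-likelihood test, 388 genes (2.81% of those tested) passed a limit of 1 on the size of the log2 fold change together with a Benjamini-Hochberg adjusted p under 0.05. They divided into 157 higher in PCa (1.14%) and 231 lower (1.67%). All 388 had both tumors outside the range of the PIN libraries, as did 6164 of all tested genes (44.6%), 2943 of them above (21.3%) and 3221 below (23.3%). The median log2 fold change over all tested genes was 0.07. In 357 of the 388 called genes the tumors lay within 2-fold of each other, and in 8 they were more than 4-fold apart. The test itself favors genes on which the tumors agree, so these counts are not separate evidence for the calls. The calls depend on which libraries are used. With any 1 PIN library left out no gene passed, although 1818 to 2351 genes then had an unadjusted p under 0.05, and the calls below are to be read with that limit. All adjusted p-values below are from edgeR's test over the 13813 genes, and a log2 fold change is PCa minus PIN with its standard error (SE).

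**Figure D1:**
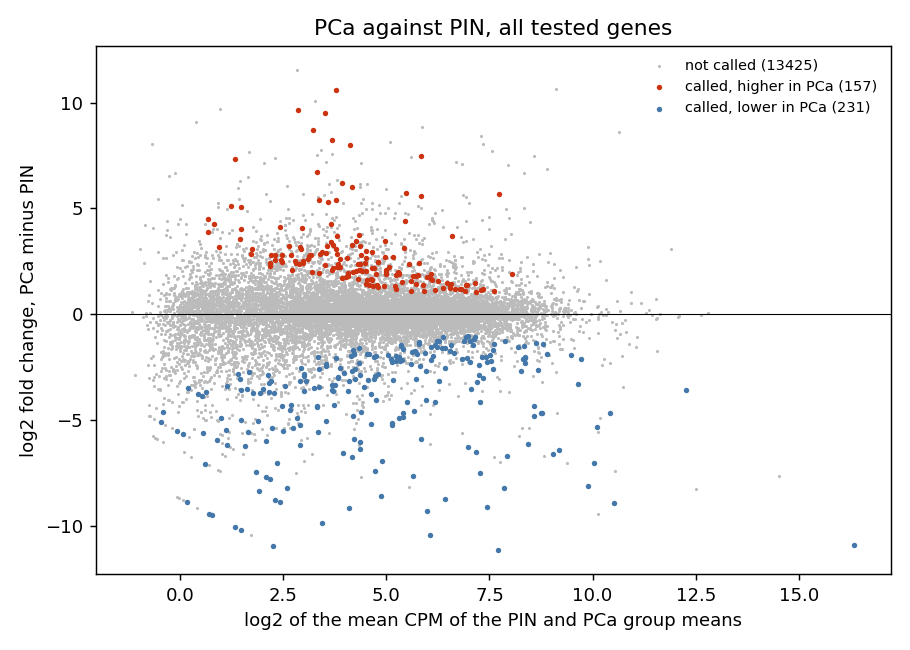
Log2 fold change (PCa minus PIN) of each of the 13813 tested genes against the log2 of its mean CPM, with the 157 genes called higher in red and the 231 called lower in blue. The gene with the most reads, 9530053A07Rik, stands alone at the lower right, and the called falls reach further from 0 than most called rises.

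The tumors were far less alike than the PIN libraries. Spearman correlations across genes were 0.963 to 0.982 between PIN libraries and 0.838 between PCa 1 and PCa 2, which was no higher than the 0.83 to 0.868 between a PIN and a PCa library. Between the tumors 2601 genes (18.8%) were more than 4-fold apart, against 224 to 493 genes (1.62% to 3.57%) in pairs of PIN libraries. For 2751 genes (19.9%) the tumors lay on opposite sides of the whole PIN range. Called genes are described first, and differences between the tumors after them, without a test, since each tumor is 1 library.

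Smooth muscle genes were low in both tumors. All 16 members of the smooth muscle list were lower in both tumors than in any PIN library, 11 of them passed the test (background 1.67% called lower), and the list's median log2 fold change was -6.24. Myh11 (ENSMUSG00000018830, mm9 chr16:14194620-14291501, minus strand), the smooth muscle myosin heavy chain, had 1795, 1389 and 2464 CPM in PIN 1, 2 and 3 against 7.93 in PCa 1 and 5.49 in PCa 2. It fell by 8.13 on the log2 scale (SE 0.52, edgeR adjusted p = 0.0306). Both tumors lay far below the lowest PIN library. Cnn1, the actin-binding calponin, went from 419.7, 339 and 614 CPM in PIN to 2.36 in PCa 1 and 0.672 in PCa 2. Actg2, the enteric gamma actin, went from 263, 185 and 478 to 1.37 and 2.05, and Lmod1, leiomodin, which starts actin filaments in smooth muscle, from 59.9, 45.6 and 72.8 to 0.67 and 0.299. Their log2 fold changes were -8.23, -7.49 and -6.92, with edgeR adjusted p-values of 0.0379, 0.0337 and 0.0306. Filament proteins and regulators alike were low in both tumors. Myocd, the coactivator that turns on the smooth muscle program, had 13.9, 12.04 and 18.3 CPM in PIN, 0.352 in PCa 1 and 0.0373 in PCa 2 (log2 fold change -6.196, SE 0.95, edgeR adjusted p = 0.0492). The remaining called members were Acta2, Tagln, Mylk, Synpo2, Cald1 and Tpm2, with log2 fold changes from -6.69 for Tpm2 to -4.69 for Mylk. Des, the muscle intermediate filament, stood at 321, 308 and 538 CPM in PIN and at 6.24 and 0.971 in the tumors, yet missed the threshold (edgeR adjusted p = 0.0504), as did Tpm1, Smtn, Pgm5 and Hspb7. Bulk RNA cannot tell fewer cells of a type from less RNA per cell, here and in every group below.

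Genes of other cell types around the gland moved less, or not together. None of 20 fibroblast and matrix genes passed, although 9 were lower in both tumors than in any PIN library (23.3% of all tested genes were) and the median log2 fold change was -1.2. Their summed level (here and below over all genes of a list found in the table, tested or not) was 2631, 2313 and 3051 CPM in PIN, 1874 in PCa 1 and 659.9 in PCa 2, so the tumors differed and PCa 2 was the lower. Dcn, the matrix proteoglycan decorin, had 393, 479.7 and 419.6 CPM in PIN, 457 in PCa 1 and 224 in PCa 2. The 13 endothelial genes held no call, a median of 0.297 and sums of 157.8 to 203.5 CPM in PIN, 189.1 in PCa 1 and 256 in PCa 2. Among 10 tested genes of nerve, fat and striated muscle, 3 fell (background 1.67% called lower). Among them were Acta1, the skeletal muscle actin, from 180.0, 54.8 and 275 CPM in PIN to 0.282 and 0.523 in the tumors (log2 fold change -8.71, edgeR adjusted p = 0.0419), and Ckm, muscle creatine kinase, with 1 read in each tumor against 200, 89 and 252 reads in PIN. Further striated muscle genes did not follow them. Mylpf had 1.45, 0.941 and 1.07 CPM in PIN, 1.34 in PCa 1 and 2.54 in PCa 2, and Tnnt3, below the filter, had 0.197, 0 and 0.247, 12.7 and 0.187.

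A few secretory genes that took many reads in PIN had low values in both tumors. The gene 9530053A07Rik (ENSMUSG00000078776, mm9 chr7:28914485-28949830, plus strand) alone took 13.1%, 14.6% and 17.4% of all reads in PIN 1, 2 and 3. It had 141068, 154695 and 203803 CPM there, and 94.7 and 76.02 CPM in PCa 1 and PCa 2, a log2 fold change of -10.93 (SE 1.49, edgeR adjusted p = 0.0435). Close by on the opposite strand, Gm10935 (mm9 chr7:28884679-28887506) went from 304, 377 and 581 CPM to 0.317 and 0.0373, with the largest fitted fall of all called genes at -11.16 (SE 0.98, edgeR adjusted p = 0.0337). Whether reads of these neighbours could be exchanged was not tested. The 10 genes with the most reads held 20.9% to 27.1% of each PIN library but 5.93% of PCa 1 and 5.44% of PCa 2. The mitochondrial mt-Cytb and mt-Co1 were among the 3 genes with the most reads in each tumor, together with Sbp in PCa 1 and Glul in PCa 2. With library sizes taken without the most abundant genes, all 388 calls were made again among 393.

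Of 13 prostate secretory genes, 2 passed, both lower (background 1.67%), and 6 were below the PIN range in both tumors (23.3% of all tested genes were). Besides 9530053A07Rik the second was BC018473, with 227, 304 and 161 reads in PIN and 1 in each tumor, 250-fold fewer per normalized read (exact 95% interval 68.9 to 2070, counting error only, since reads without molecular tags are not independent molecules). Tgm4, the prostate transglutaminase of the copulatory plug, had 38110.1, 44097 and 57323 CPM in PIN, 61.3 in PCa 1 and 406 in PCa 2. Pbsn, probasin, had 7305, 13496 and 14298 CPM in PIN against 9.34 and 66.2. Neither passed (edgeR adjusted p = 0.0602 and 0.0517), and the tumors were -2.72 and -2.76 apart on the log2 scale (PCa 1 minus PCa 2), though both lay far below PIN. Azgp1, a zinc-binding glycoprotein, and Msmb, a secreted microseminoprotein, were below the PIN range in both tumors too, without a call. Azgp1 had 441, 334 and 513 CPM in PIN against 107 and 143. Msmb had 2487, 20.9 and 179.7 CPM in PIN against 14.4 and 2.76, so its PIN level rested mostly on PIN 1, and PCa 1 was close to PIN 2. The remaining secretory genes were mixed. Sbp, a spermine-binding protein, had 8.76, 0.376 and 15.7 CPM in PIN, 6335 in PCa 1 and 83.00 in PCa 2 (log2 fold change 8.598, SE 2.42, edgeR adjusted p = 0.121), so that both tumors were above PIN without a call. The related Sbpl, with which it may share reads, had 3.62, 0.151 and 7.196 CPM in PIN, 981 in PCa 1 and 0.261 in PCa 2. Defb50, a beta-defensin, had 3144, 515 and 959 CPM in PIN, 2917 in PCa 1 and 527 in PCa 2, and Apof, Pigr and Spink5 had positive log2 fold changes that did not pass. Prdx6, an antioxidant peroxiredoxin among the 5 genes with the most reads in PIN, fell from 7588, 9731 and 9852 CPM to 574 and 928 (log2 fold change -3.59, SE 0.48, edgeR adjusted p = 0.0427).

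The machinery that folds secreted proteins in the endoplasmic reticulum (ER) was lower in both tumors for 20 of its 28 genes, against 23.3% of all tested genes. The median log2 fold change was -1.1, and 3 genes passed, all lower (background 1.67%). Creld2, an ER stress-inducible folding factor, had 261, 223 and 292 CPM in PIN against 65.5 and 61.7 (log2 fold change -2.02, SE 0.20, edgeR adjusted p = 0.0364). Sel1l, which hands misfolded proteins over for degradation, fell by 2.07 and the co-chaperone Dnajc3 by 1.93 on the log2 scale (edgeR adjusted p = 0.0463 and 0.0415). Hspa5, the main ER chaperone BiP, had 3868, 1804 and 3735 CPM in PIN, 1159 in PCa 1 and 1000.4 in PCa 2 without passing (edgeR adjusted p = 0.134). The summed level of the list was 25690, 20230 and 28490 CPM in PIN and 10940 and 9737 in the tumors, so the groups did not overlap.

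Cell division genes went the other way in both tumors. Mitosis genes work in spindle assembly, chromosome capture and cell splitting, and 43 of the 44 listed were above every PIN library in both tumors, where 21.3% of all tested genes were. The median log2 fold change was 2.53, and 10 passed, all higher (background 1.14%). Summed over the list, PIN held 387.6, 213.3 and 377.3 CPM, PCa 1 held 1573 and PCa 2 held 1749. Nek2, a kinase that separates centrosomes, had 2.63, 1.32 and 3.41 CPM in PIN, 28.5 in PCa 1 and 18.9 in PCa 2 and the largest called rise of the list, 3.27 (SE 0.49, edgeR adjusted p = 0.0476). Ncapg, a condensin subunit, rose by 3.100, Racgap1, which works in cytokinesis, by 2.92, and cyclin B2 (Ccnb2) by 2.91 on the log2 scale (edgeR adjusted p = 0.0492, 0.0416 and 0.0432). Ccnb2 may serve as the picture of the group, with 2.71, 1.73 and 3.74 CPM in PIN and 19.9 and 21.1 in the tumors. The other called members were Ccna2, Ccnb1, Bub1b, Cenpa, Cenpe and Ndc80. The proliferation marker Mki67 had 54.2, 21.3 and 46.9 CPM in PIN, 244 in PCa 1 and 332 in PCa 2, and Top2a, topoisomerase II alpha, had 51.3, 30.3 and 59.4 against 149 and 162, neither with a call (edgeR adjusted p = 0.0509 and 0.0611). The sole member that was not above PIN in both tumors was Pttg1, securin, with 12.97, 17.6 and 13.1 CPM in PIN and 11.5 and 14.1 in PCa. Aurka, the spindle-pole kinase, was the exception in size, with 155 CPM in PCa 1 against 12.5 in PCa 2 and 3.26, 1.81 and 4.11 in PIN.

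Genes of DNA replication followed. Of 34 listed, 33 were above the PIN range in both tumors (21.3% of all tested genes were) and 9 passed, all higher (background 1.14%), with a median log2 fold change of 1.58, smaller than that of mitosis. Mcm6, a subunit of the replicative helicase, had 19.8, 24.5 and 22.2 CPM in PIN and 77.6 in each tumor, so that its rise of 1.81 (SE 0.16, edgeR adjusted p = 0.0337) was among the best determined. Its partners Mcm3, Mcm5 and Mcm7 passed too. Pole, the leading-strand polymerase, rose by 2.22, Uhrf1, which keeps DNA methylation through replication, by 2.19, Dtl, a licensing control factor, by 2.19 and Rrm2, the ribonucleotide reductase subunit, by 2.104 (edgeR adjusted p = 0.0427, 0.0427, 0.0476 and 0.0379), and Lig1, the replicative ligase, was the last called. Gins2 was the member not above PIN in both, at 6.52, 7.601 and 8.76 CPM in PIN, 13.99 in PCa 1 and 7.36 in PCa 2. Brca1, a DNA repair gene and the sole call among 21 tumor suppressors and CDK inhibitors (background 1.14% called higher), rose in the same way from 6.05, 3.76 and 5.02 CPM to 20.1 and 25.7 (log2 fold change 2.21, SE 0.31, edgeR adjusted p = 0.0445).

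Many mitosis genes share a promoter layout in which a CCAAT box and a cell cycle homology region (CHR, letters TTTGAA) near the start let the gene be held silent outside the cell cycle. In the RefSeq windows of 250 bases before to 50 after the start (build GRCm38.p6), 37 of the 44 mitosis genes had a window, and TTTGAA on either strand was found in 27 of them (73.0%), CCAAT in 28 (75.7%) and both in 24 (64.9%). Of the 9726 tested genes with a window, 14.4% held TTTGAA, 42.5% held CCAAT and 5.9% both, and over the windows of all 27025 genes the shares were 20.2%, 41.1% and 7.97%. The motifs were searched separately, so a base may belong to both. Among the called mitosis genes 9 had a window and 6 held TTTGAA. The following are the 3 of these with the lowest p, from 120 bases before the start to 50 after it, with TTTGAA and CCAAT or its reverse ATTGG in capitals, shown because they carry the shared layout of genes that rose together. A match of letters does not show a bound site.
Bub1b, chr2:118598091-118598260, plus strand: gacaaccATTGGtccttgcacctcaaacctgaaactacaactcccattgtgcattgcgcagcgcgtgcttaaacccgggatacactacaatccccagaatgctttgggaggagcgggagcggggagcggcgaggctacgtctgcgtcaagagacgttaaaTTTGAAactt
Cenpa, chr5:30666766-30666935, plus strand: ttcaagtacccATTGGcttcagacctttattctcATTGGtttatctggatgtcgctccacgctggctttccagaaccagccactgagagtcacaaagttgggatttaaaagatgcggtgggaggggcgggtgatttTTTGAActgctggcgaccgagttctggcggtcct
Racgap1, chr15:99651607-99651776, minus strand: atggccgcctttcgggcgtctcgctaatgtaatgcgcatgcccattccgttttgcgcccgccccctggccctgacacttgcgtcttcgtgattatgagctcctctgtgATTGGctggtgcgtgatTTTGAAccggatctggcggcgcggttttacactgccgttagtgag
In each the TTTGAA falls just past the annotated start, beginning at base 41, 17 and 6 after it, with 1, 2 and 1 CCAAT boxes upstream. These 3 genes were picked by low p, which favors close levels in the tumors, so such agreement says nothing of the promoters. Bub1b, a spindle checkpoint kinase, had 5.46, 7.45 and 7.16 CPM in PIN and 34.4 and 35.1 in PCa, and Cenpa, the centromeric histone, had 2.28, 2.14 and 3.29 CPM against 19.4 and 17.3. Racgap1 had 6.800, 3.88 and 6.95 CPM in PIN, 36.6 in PCa 1 and 52.6 in PCa 2.

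**Figure D2:**
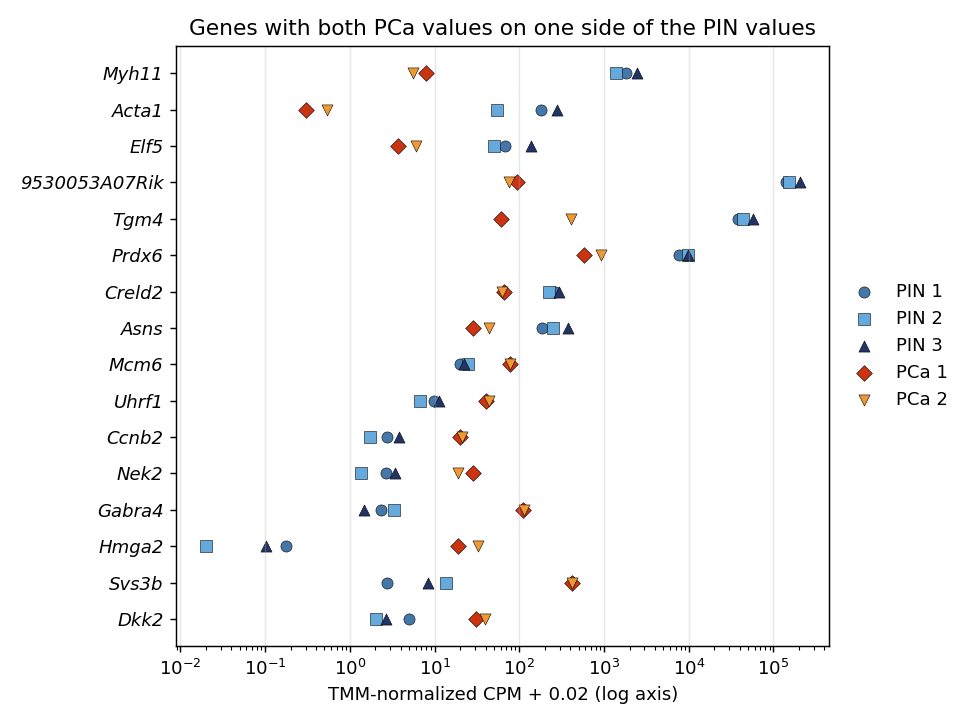
TMM-normalized CPM (plus 0.02, log axis) of 16 genes in each of the 5 libraries, with blue markers for PIN and red or orange markers for PCa 1 and PCa 2. In each gene both tumors lie on one side of all PIN libraries, from Myh11 and 9530053A07Rik, lower by orders of magnitude, to Gabra4 and Svs3b, whose tumor values nearly coincide. Tgm4 is shown though it did not pass the test.

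Over all genes called higher, those with the smallest p were Ces1e, Gabra4, Fmnl3, Phf16, Foxc1, Mcm6, Mmp11 and Cacng4, of which Mcm6 was described with DNA replication. Gabra4 (ENSMUSG00000029211, mm9 chr5:71960973-72049547, minus strand), the alpha-4 subunit of the GABA-A receptor, a chloride channel best known from neurons, had 2.28, 3.27 and 1.44 CPM in PIN and 109.6 and 114 in the tumors. It rose by 5.58 (SE 0.39, edgeR adjusted p = 0.0306). Ces1e, a carboxylesterase in a cluster of similar genes, so that its reads may be shared with paralogs, went from 0.197, 0.151 and 0.206 CPM to 19.7 and 19.8 (log2 fold change 6.71, SE 0.33, edgeR adjusted p = 0.0227). Such tight agreement between tumors is part of what a small p selects. Foxc1, a forkhead factor of mesodermal development, had 9.59, 7.64 and 8.68 CPM against 44.1 and 50.7. Mmp11, the matrix protease stromelysin-3, had 0.825, 0.941 and 0.864 against 11.03 and 18.4, and Fmnl3, an actin-nucleating formin, 9.47, 7.45 and 8.47 against 47.7 and 47.3. The chromatin protein Phf16 rose by 2.38 and Cacng4, an auxiliary subunit of calcium channels and AMPA receptors, by 6.22 on the log2 scale.

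The largest rises among called genes were of genes nearly silent in PIN. Hmga2 (mm9 chr10:119798331-119913525, minus strand), a chromatin protein of fetal tissues, had 0.157, 0 and 0.0822 CPM in PIN, 18.7 in PCa 1 and 32.7 in PCa 2 (log2 fold change 8.26, SE 0.96, edgeR adjusted p = 0.0415). H19, an imprinted non-coding RNA also of fetal tissues, had 0.472, 0.452 and 0.987 CPM against 195 and 34.3, a rise of 7.48 (SE 0.95, edgeR adjusted p = 0.0427) in which PCa 1 exceeded PCa 2 by 2.49 on the log2 scale. Slc23a1, a vitamin C transporter, had 0.0786, 0.301 and 0 CPM against 39.3 and 29.6. Others rested on 1 to 3 reads over all PIN libraries, so only a ratio with its counting interval is given. Cited1, a transcriptional coregulator, had 3 reads in PIN against 612 and 415 in the tumors (474-fold, exact 95% interval 162 to 2300). Cryba4, a lens crystallin, had 2 against 92 and 180 (188-fold, 51.6 to 1560), and Defa24, an alpha-defensin with close paralogs, 1 against 326 and 471 (1100-fold, 197 to 43600). S100a8, a neutrophil protein, had 2 reads in PIN and 1133 and 161 in the tumors (895-fold, 247 to 7400), and 4930502E18Rik had 1 against 1413 and 145 (2160-fold, 386 to 85200). The last gene was the 1 call among 4 tested of 24 germline and testis genes (background 1.14% called higher). It passed the filter only through its tumor values, so this count says nothing of the list. PCa 1 was above PCa 2 by 3.09 on the log2 scale.

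At the other end, several genes with clear levels in PIN were at or near 0 in both tumors. Gpr37l1, an orphan receptor, had 142, 238 and 338 reads in PIN and 0 in both tumors, at least 173-fold lower if 3 reads are allowed over the PCa group. Pgr15l had 97, 182 and 149 reads (at least 103-fold lower), the non-coding D030068K23Rik 60, 191 and 135 (at least 93.0-fold) and Accn1, an acid-sensing ion channel, 104, 70 and 87 (at least 62.9-fold), all with 0 in PCa. Kcng1, a potassium channel subunit, had 631, 302 and 691 reads against 0 and 1. The falls with the smallest p were led by Camk2b, the beta chain of calcium/calmodulin kinase II, from 106, 136 and 141 CPM to 0.247 and 0.149 (log2 fold change -9.29, SE 0.37, edgeR adjusted p = 0.0227), and Aass, the first enzyme of lysine breakdown, from 43.8, 52.8 and 60.1 to 0.352 and 0.261 (log2 fold change -7.39, SE 0.33, edgeR adjusted p = 0.0227). Adarb2, an RNA-editing family member, kept 3 reads over both tumors against 759, 1120 and 724 in PIN. Fgl1, a fibrinogen-like secreted protein, went from 248, 306 and 483 CPM to 0.775 and 0.448, and Ms4a5, a membrane protein, from 65.1, 207 and 126 to 0.0352 and 0.149. Not all strong falls ended near 0. Tmem47, Rab39b, a vesicle-trafficking GTPase, and Armcx3, which acts in mitochondrial transport, kept 3.52, 13.5 and 1.97 CPM in PCa 1 and 3.17, 17.9 and 1.904 in PCa 2, with log2 fold changes of -3.79, -3.14 and -3.601.

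Identity genes of the prostate epithelium were checked next, since the labels call every tissue prostate. The 18 luminal genes held no call and a median log2 fold change of 0.912, with 4 above PIN in both tumors (21.3% of all tested genes were) and 3 below (23.3% of all). Krt8, the luminal keratin, had 265, 163 and 187 CPM in PIN, 496 in PCa 1 and 363 in PCa 2 (log2 fold change 1.07, SE 0.29, edgeR adjusted p = 0.114), so that luminal keratin was present in both tumors. The 3 below PIN in both were Prom1, at 403, 458 and 539 CPM against 71.7 and 2.28, Epcam, at 915, 531 and 1160.4 against 503 and 267, and Cd24a, at 1892, 2707 and 2335 against 1255 and 1308. The summed luminal level was 6224, 5706 and 6269 CPM in PIN, 8395 in PCa 1 and 4556 in PCa 2. Of 27 tested lineage transcription factors, 11 were below PIN in both tumors (23.3% of all tested genes were), and 1 passed (background 1.67% called lower). This was Elf5, an ETS factor of secretory epithelia, which fell from 67.6, 50.8 and 138 CPM to 3.701 and 6.05 (log2 fold change -4.13, SE 0.61, edgeR adjusted p = 0.0469). The related factor Ehf had 1648, 2042 and 2305 CPM against 527 and 234 without passing (edgeR adjusted p = 0.0676). Osr1, whose promoter drives the Cre, was low throughout, at 3.38, 3.199 and 3.58 CPM in PIN and 0.811 and 0.597 in PCa.

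Androgen receptor targets did not move as a block. Among 22 genes none passed, 7 were below PIN in both tumors (23.3% of all tested genes were), 2 above (21.3% of all), and 7 were on opposite sides of it (19.9% of all), with a median log2 fold change of -0.221. The human transgene has no row in this mouse table, so its level was not analysed here. Fkbp5, an androgen-induced co-chaperone, had 495, 122 and 263 CPM in PIN, 1197 in PCa 1 and 257 in PCa 2. Tmprss2, the luminal serine protease, had 443, 767 and 822 CPM against 248 and 48.4. Of 22 kallikreins 5 could be tested and none passed. All 22 had summed levels of 58.96, 1.919 and 41.12 CPM in PIN, 85.92 in PCa 1 and 11.05 in PCa 2, and 70.7 CPM of the PCa 1 sum were of Klk1b22, which was below the filter.

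**Figure D3:**
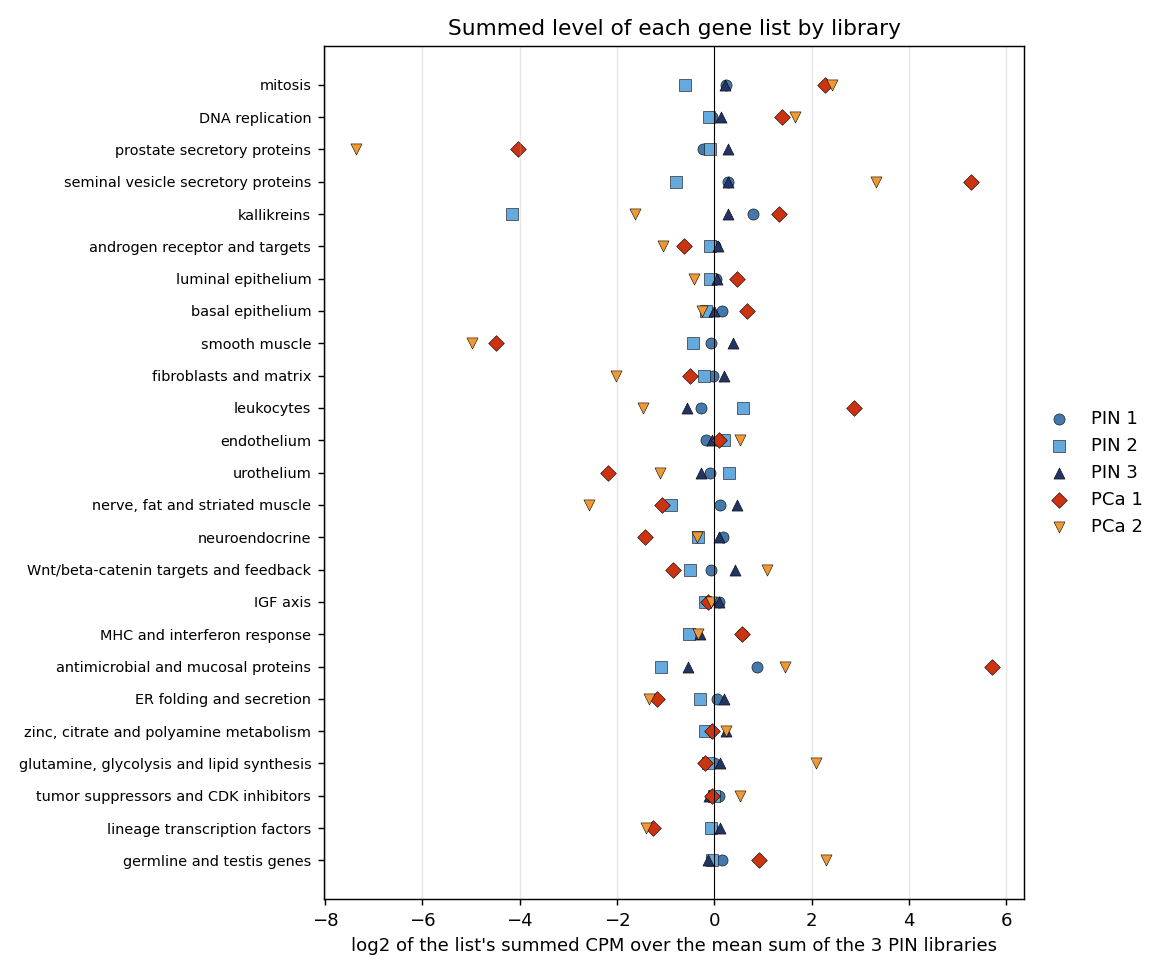
Summed CPM of each gene list in each library, as the log2 ratio to the mean of the 3 PIN sums, with blue markers for PIN and red or orange markers for PCa 1 and PCa 2. The tumors stand together for mitosis, DNA replication, smooth muscle, ER folding and lineage factors, and apart for leukocyte, antimicrobial, Wnt and glutamine lists.

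Seminal vesicle secretory genes, which code for proteins of the seminal fluid, were above PIN in both tumors for 7 of 10 tested members (21.3% of all tested genes were), with 1 call, higher (background 1.14%), and a median log2 fold change of 6.17. Svs3b had 2.71, 13.5 and 8.43 CPM in PIN, 422 in PCa 1 and 414 in PCa 2 (log2 fold change 5.67, SE 0.72, edgeR adjusted p = 0.0427). Its near copy Svs3a had 1.38, 12.5 and 4.69 CPM against 1065 and 207, and how reads were divided between the pair is not known. Svs2, the main coagulum protein, was at 0.393, 1.204 and 0.493 CPM in PIN, 2218 in PCa 1 and 8.96 in PCa 2. The summed level was 79.96 to 167.7 CPM in PIN, 5312 in PCa 1 and 1385 in PCa 2. The sum was larger in PCa 1, but Svs4 had 27.98 CPM there and 70.9 in PCa 2, and Pate4 121 and 651.

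The Wnt/beta-catenin list showed how far the tumors were apart. Wnt ligands stabilize beta-catenin, which enters the nucleus and turns on targets, several of which are inhibitors that feed back on the pathway. Of 29 tested genes only Dkk2 passed (background 1.14% called higher), 8 were above PIN in both tumors (21.3% of all tested genes were), and 13 were on opposite sides of PIN (19.9% of all), 11 of these with PCa 2 above. The median log2 difference from the PIN mean was -0.677 in PCa 1 and 1.9 in PCa 2. Dkk2, a secreted modulator of Wnt receptors, rose from 4.95, 1.99 and 2.67 CPM to 31.01 and 38.98 (log2 fold change 3.45, SE 0.46, edgeR adjusted p = 0.0427). Axin2, the standard feedback target, had 139, 179 and 93.3 CPM in PIN, 46.7 in PCa 1 and 742 in PCa 2. Lgr5, the R-spondin receptor of stem cells, had 17.4, 43.7 and 17.4 CPM in PIN, 0.141 in PCa 1 and 349.9 in PCa 2. Both targets lay below PIN in one tumor and well above it in the other. The same split held for Znrf3, a ligase that removes Wnt receptors, at 77.5, 75.4 and 67.3 CPM in PIN, 39.9 in PCa 1 and 816 in PCa 2, although not for every feedback gene. Apcdd1, an inhibitor at the membrane, had 27.8, 36.7 and 36.7 CPM in PIN, 52.9 in PCa 1 and 1323 in PCa 2. Notum, a Wnt-inactivating enzyme, was at 3.62, 3.35 and 2.96 CPM in PIN, 13.7 in PCa 1 and 164 in PCa 2, so that both were above PIN in each tumor but by far the most in PCa 2. Ctnnb1, beta-catenin itself, had 569.7, 452 and 466 CPM in PIN and 803 and 1355 in PCa (log2 fold change 1.12, SE 0.30, edgeR adjusted p = 0.113), above PIN in both tumors but not called. Cyclin D1 (Ccnd1) had 73.9, 125 and 127 CPM in PIN, 179 in PCa 1 and 821 in PCa 2 (edgeR adjusted p = 0.14), and Myc 59.3, 65.1 and 45.8, 49.9 and 80.4 (edgeR adjusted p = 0.704). The protease Mmp7, with the most reads of the list, was lower in both tumors, at 2414, 1353 and 4252 CPM in PIN, 441 in PCa 1 and 911 in PCa 2.

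The insulin-like growth factor (IGF) axis held no call among 25 tested genes (background 2.81% either way), with a median log2 fold change of 0.111. In both tumors 4 of these were above PIN (21.3% of all tested genes were) and 8 below it (23.3% of all). Igf1, the ligand, had 62.3, 59.98 and 55.8 CPM in PIN, 34.2 in PCa 1 and 3.47 in PCa 2 (log2 fold change -1.65, SE 0.94, edgeR adjusted p = 0.345). Its receptor Igf1r had 100.5, 51.9 and 67.1 CPM in PIN, 144 in PCa 1 and 137 in PCa 2 (log2 fold change 0.94, SE 0.31, edgeR adjusted p = 0.156). Igf1 was thus below and Igf1r above the PIN range in both tumors, without a call. The ligand Igf2 had 4.72, 7.64 and 4.77 CPM in PIN, 21.6 in PCa 1 and 6.94 in PCa 2, and the insulin receptor Insr was inside the PIN range in PCa 1 and above it in PCa 2. Igf2r, a receptor that clears IGF2, had 312, 195 and 264 CPM in PIN, 197 in PCa 1 and 417 in PCa 2. Mapk13, which the paper places downstream of IGF1, had 50.7, 29.3 and 18.1 CPM in PIN, 138 in PCa 1 and 189 in PCa 2. It was above PIN in both tumors without a call (edgeR adjusted p = 0.0702).

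**Figure D4:**
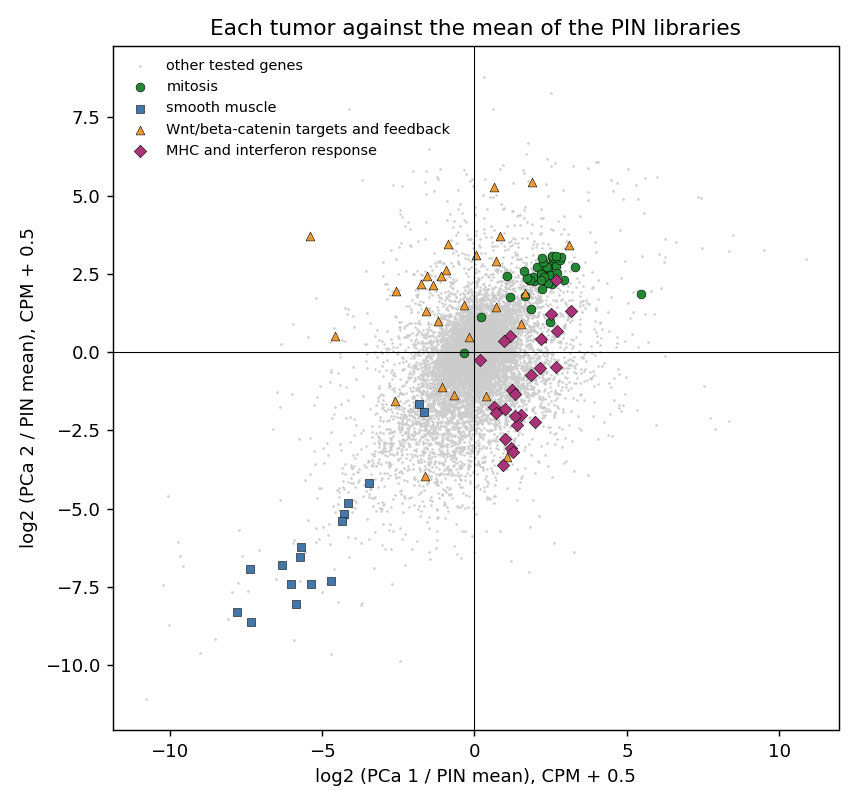
Log2 ratio of PCa 1 (horizontal) and PCa 2 (vertical) to the mean of the PIN libraries (CPM plus 0.5) for each tested gene in grey, with 4 gene lists coloured. Mitosis genes sit in the upper right and smooth muscle genes in the lower left, where both tumors departed from PIN the same way, while most Wnt genes lie above the horizontal zero line and MHC genes lie to the right of the vertical one.

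Many basal, immune and mucosal genes were higher in PCa 1 than in PCa 2. Basal genes mark the cells beneath the luminal layer, and 9 of 15 tested were split around PIN (19.9% of all tested genes were), 8 of them with PCa 1 above and PCa 2 below. Krt5 had 94.8, 60.5 and 133 CPM in PIN, 128 in PCa 1 and 5.12 in PCa 2 (edgeR adjusted p = 0.822), and Krt15 had 241, 74.5 and 213 against 403 and 1.23. Trp63, the p63 factor that maintains basal cells, had 41.8, 43.5 and 46.9 CPM in PIN, 50.4 in PCa 1 and 23.2 in PCa 2 (edgeR adjusted p = 0.697). Krt14 was split like Krt15, whereas Krt17 was only slightly below the PIN range in PCa 2 (0.635 CPM against 2.08, 0.865 and 1.56 in PIN) and Krt6a was above it in both tumors, at 19.2 and 3.696 CPM against 3.34, 0.0376 and 0.247. Of 24 genes of antigen presentation (MHC) and interferon response, 23 were above PIN in PCa 1 (38.5% of all tested genes were) and 14 below it in PCa 2 (41% of all). Of the same 24, 14 had the tumors on opposite sides of PIN (19.9% of all) and 5 were above it in both (21.3% of all). None passed (background 2.81% either way). H2-K1, a class I heavy chain, had 435, 399 and 298 CPM in PIN, 879 in PCa 1 and 164 in PCa 2, and Cd74, the class II chaperone, had 105, 213 and 67.7 against 256 and 18.3. B2m, the partner of class I chains, was the one not above PIN in PCa 1, at 5358, 1491 and 2669.5 CPM in PIN and 3635 and 2661 in PCa.

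Leukocyte markers moved with this split. Of 20 tested, 13 were above PIN in PCa 1 and 15 below it in PCa 2 (38.5% and 41% of all tested genes were). Their summed level was 128.7, 233.1 and 104.6 CPM in PIN, 1130 in PCa 1 and 56.42 in PCa 2. The defining marker Ptprc (CD45) was at 9.905, 27.02 and 6.497 CPM in PIN, 49.8 in PCa 1 and 5.45 in PCa 2, and T cell genes were low everywhere, with Cd3e at 0.943, 3.16 and 0.329, 2.36 and 0.187. Igj, the joining chain made by plasma cells, had 16.6, 15.99 and 0.658 CPM in PIN, 464 in PCa 1 and 2.73 in PCa 2, and Lyz2, a macrophage lysozyme, 29.5, 61.3 and 28.6, 260.3 and 15.9. S100a8 was the single leukocyte gene called (background 1.14% called higher). Of other neutrophil genes, S100a9, below the filter, had 0.118, 0.113 and 0.247 CPM in PIN, 57.5 in PCa 1 and 0.709 in PCa 2. Csf3r had 0.55, 1.54 and 0.617, 21.4 and 0.821, whereas Ly6g was at or near 0 in every library. The part of leukocytes in the MHC values was not tested. Antimicrobial and mucosal genes were also far apart in the tumors, with sums of 35.64 to 139.7 CPM in PIN, 3981 in PCa 1 and 206.3 in PCa 2, and no call among 12 tested. Ltf, lactoferrin, had 12.3, 0.0753 and 0.123 CPM in PIN, 1513 in PCa 1 and 0.523 in PCa 2, and Lcn2, an iron-binding defence protein, 74.3, 12.7 and 18.96, 967 and 10.5. Urothelial genes, tested to see whether bladder tissue could be present, gave no call among 5, with sums of 275.6 to 407.2 CPM in PIN, 73.55 in PCa 1 and 153.4 in PCa 2. The sums follow Upk1b, at 246, 388 and 247 CPM in PIN and 4.97 and 42.04 in PCa. The uroplakin Upk2 was above PIN in both tumors, at 2.16, 0.828 and 1.19 CPM against 9.198 and 78.4 (log2 fold change 4.97, edgeR adjusted p = 0.0724), as was Upk3a, at 0.846 and 1.27 CPM. The part of urothelium in other values was not tested. The 6 tested neuroendocrine genes gave none either, and all 16 listed had sums of 32.89 to 46.77 CPM in PIN and 15.3 and 32.3 in the tumors.

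**Figure D5:**
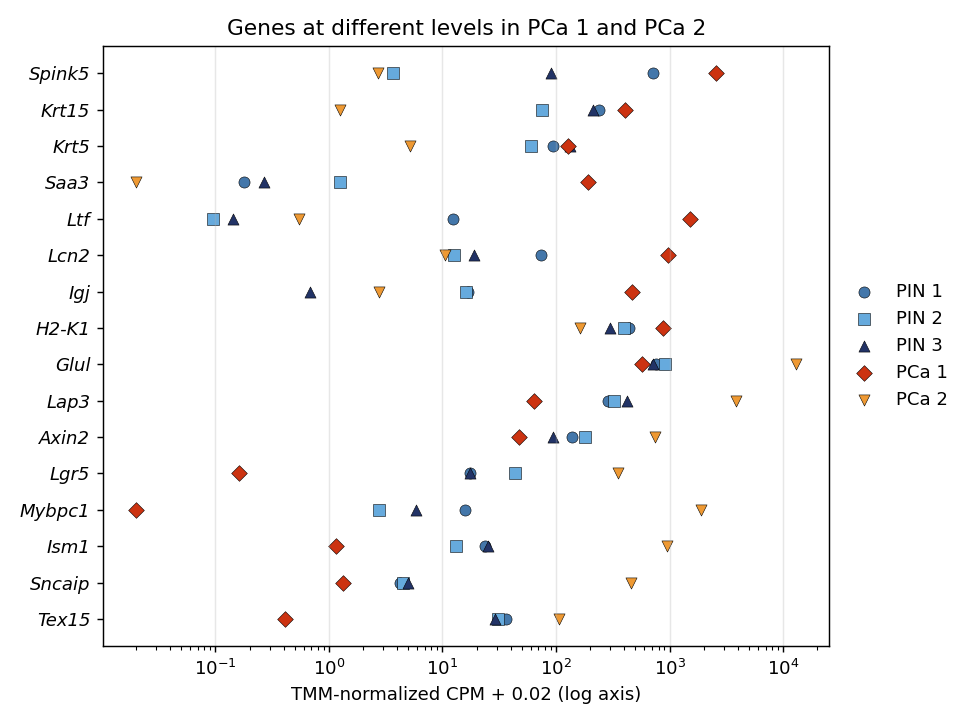
TMM-normalized CPM (plus 0.02, log axis) of 16 genes in each library, with blue markers for PIN and red or orange markers for PCa 1 and PCa 2. PCa 1 is the highest library for the genes from Spink5 to H2-K1 other than Krt5, and PCa 2 is the highest for those from Glul to Tex15.

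Glul and Lap3 were far higher in PCa 2 than in any other library. Glul, glutamine synthetase, a known beta-catenin target of the liver, had 756, 914 and 716 CPM in PIN, 573 in PCa 1 and 13051 in PCa 2, where it took 1.43% of all reads, more than any other gene. Lap3, an aminopeptidase, had 287, 323 and 419 CPM in PIN, 63.5 in PCa 1 and 3876 in PCa 2. Both genes were below PIN in PCa 1 and above it in PCa 2, and neither passed. In the list of glutamine, glycolysis and lipid synthesis 27 genes were tested and 2 passed (background 2.81% either way). Asns, asparagine synthetase, fell from 187, 249 and 373 CPM to 28.4 and 44.2 (log2 fold change -2.89, SE 0.42, edgeR adjusted p = 0.0463), and Pfkl, a phosphofructokinase of glycolysis, rose from 31.6, 27.3 and 28.4 to 71.9 and 123 (log2 fold change 1.74, SE 0.27, edgeR adjusted p = 0.0485). Zinc, citrate and polyamine genes, which serve the secretion of prostatic fluid, held no call among 22 and a median of -0.232.

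Genes with the widest gap between the tumors, among those on opposite sides of PIN, were named by size alone. Among those higher in PCa 1 were Spink5, Spinkl, Saa3, Saa1 and Krt15. Spink5, a protease inhibitor of epithelia, had 711, 3.65 and 90.3 CPM in PIN, 2556 in PCa 1 and 2.69 in PCa 2. It already varied widely within PIN, whereas Saa3, an acute phase protein, had 0.157, 1.24 and 0.247 CPM there, 191 in PCa 1 and 0 in PCa 2. Higher in PCa 2 were Mybpc1, Ism1, Lgr5, Npas3, Sncaip and Dpp6. Mybpc1, a myosin-binding protein of slow muscle, had 15.7, 2.75 and 5.798 CPM in PIN, 0 in PCa 1 and 1890.2 in PCa 2, and Ism1, a secreted protein, 23.5, 13.02 and 25.3, 1.13 and 955. Sncaip, which binds alpha-synuclein, had 4.17, 4.44 and 4.93 CPM in PIN, 1.304 in PCa 1 and 453 in PCa 2. Its PIN values were within 1 CPM of each other.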

How the data were processed

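Paired-end libraries of 3 PIN and 2 PCa tissues were made after removal of ribosomal RNA (Kapa HyperPrep with RiboErase). The authors trimmed the reads with cutadapt 1.9.1, aligned them to mm9 with HISAT2 2.1.0 and counted them per gene with HTSeq 0.6.1, and the deposited values are these raw counts. The strand setting is not given in the sources used here, so overlapping genes on opposite strands may share reads. The exon lengths that the authors deposited, another kind of value, were not used. The study's methods name TPM as the input of its test and also Clipper, while counts were used here.

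Groups followed the labels. In R 4.3.3, all genes that exceeded 1 CPM in 2 or more of the 5 libraries were tested with edgeR 4.0.16 (TMM, quasi-likelihood F-test, default settings, 3 residual degrees of freedom), with calls where the log2 fold change exceeded 1 in size at a Benjamini-Hochberg adjusted p-value under 0.05. Each SE is the log2 fold change over the root of F. The steps were run on simulated data with the same spread in both groups, below that of the real data. That run does not show how calls behave at the spread found here. In the real data the common biological coefficient of variation was 0.489.

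The members and gene lists were chosen with earlier results of these data known. Named are the 8 largest called rises and falls, the 8 smallest p in each direction, the 5 genes with the most reads per group, up to 4 called and 2 abundant genes of each list, 13 fixed genes, and the 6 widest gaps between tumors each way. Other genes, among them Apcdd1, Notum, Znrf3, Aurka, Pttg1, Gins2, Sbp, Defb50, Tmprss2, Cd74, Ptprc, Cd3e, Igf2r, Sbpl, Azgp1, Msmb, Prom1, Epcam, Svs4, Pate4, Krt14, Krt17, Krt6a, Upk2, Upk3a, S100a9, Csf3r, Ly6g, Mylpf, Tnnt3, Klk1b22, Igf2 and Insr, were named after their values were seen, and some genes that the rule picks are not reported here. Ratios with 1 to 3 reads in a group have exact 95% intervals, and 0 reads allow 3 over the group. The distance between the 2 tumors limits every test. Alternatives were other normalizations, tools and filters, a model with WT, a replicate block, and leaving out each library.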

Additional observations from a re-analysis of the deposited data

How the results depend on the processing

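The main test made 388 calls (157 higher, 231 lower). Other scalings made 384 to 393, with 353 (upper-quartile) to 388 of the 388 among them, and the share of higher calls stayed at 38.8% to 40.7% there. With all 8 libraries in 1 model 803 genes were called (358 higher, 445 lower), 332 of the 388 among them. DESeq2 1.42.0 called 2132 (1042 higher, 1090 lower), edgeR's newer quasi-likelihood method 573 (242 higher), limma-trend 657 (428 lower), no filter 180 (52 higher, 128 lower) and edgeR's filterByExpr 254 (88 higher). Leaving out 1 library moved the count from 0 (without any 1 PIN library) to 3363 (without PCa 1), with 0 to 1235 higher and 0 to 2128 lower. Without PCa 2, 2038 were called. In these last fits the lone tumor is assumed to vary like PIN. The replicate block gave 0 calls of either direction and 1304 genes at an unadjusted p under 0.05. The deviations of same-numbered libraries correlated at 0.0605 and -0.0563. Since the deviations of the 2 PCa libraries mirror each other, these values cannot show whether the numbers pair animals. With 1 library left out the fitted log2 fold change ran from -4.23 to 0.42 for Krt5, -0.92 to 0.21 for Trp63, -1.54 to 2.44 for Axin2, -0.17 to 0.50 for Myc and -7.48 to 3.74 for Lgr5, turning its direction where PCa 2 was left out. For Lgr5 it also turned with limma-trend (-1.446) and the replicate block (-1.365). None of these was called. The cause of the differences between tools was not tested.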

Other observations

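A few genes without a test, seen after the values were known, were present in 1 tumor only. Pax2, a transcription factor of the kidney and genital ducts, had 0 CPM in the PIN libraries and in PCa 2 and 109 CPM in PCa 1, and its relative Pax8 had at most 0.141 CPM in any library. Klk1b22, a kallikrein, had 0.354, 0 and 0.37 CPM in PIN 1, 2 and 3, 70.7 in PCa 1 and 0 in PCa 2. Cxcl5, a neutrophil chemokine, had 0.55, 0.0376 and 0 CPM in PIN, 70.1 in PCa 1 and 0 in PCa 2. Tdrd1, a gene of germline RNA silencing, had 6.8 CPM in PCa 2 and at most 0.0786 in the others.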
